A study of Mus musculus with 8 samples.

Results

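Immediate early genes are transcribed within minutes of a stimulus, and 10 of them were followed through single-nucleus RNA libraries of the mouse brain: Fos, Fosb, Jun, Junb, Egr1, Egr3, Nr4a1, Arc, Npas4 and Homer1. They were taken by symbol, as a known group, from the 32285 genes of the deposited matrices, and all 10 were present. The nuclei came from left-hemisphere punches of the anterior hippocampus and of the caudate putamen of C57BL/6JN mice aged 3 or 21 months. Each region and age had 2 libraries, and each library is a pool of nuclei sorted from 1 male and 1 female. By the labels both animals gave equal numbers, and 50.9% to 63.4% of the nuclei that could be assigned to a sex were female. The labels name no treatment or genotype beyond the strain, and they do not say whether libraries of different regions came from the same mice, nor what the animals did before they were killed. P-values across libraries measure the spread between these pools.

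After filtering, 97876 nuclei remained, 6387 to 17013 per library. Before filtering, library totals were 67205436 to 234811422 unique molecular identifiers (UMIs, each standing for 1 captured RNA molecule). Median depth was 7565 and 8556 UMIs per nucleus in the 3-month and 7628 and 8203 in the 21-month hippocampal libraries. In the caudate putamen the 3-month libraries were deeper (9619 and 11327 UMIs) than the 21-month ones (7546 and 6664 UMIs). The second 3-month caudate putamen library was the deepest, and the file headers name Cell Ranger 7.0.0 for it against 6.1.2 for the other 7. Pairs of libraries shared 21 to 146 barcodes, 0.316% to 0.774% of the smaller library. Nuclei were clustered without the 10 genes and without related early response genes, and classes were named X-like from marker genes. The class names used here stand for such X-like nuclei.

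The products of these genes fall into 2 roles. Most are transcription factors, induced when synaptic activity raises calcium and kinases act on the factors CREB and SRF at promoters that need no new protein. Fos, Fosb, Jun and Junb are AP-1 subunits, which bind DNA as Fos-Jun or Jun-Jun pairs. Egr1 and Egr3 are zinc finger factors, Nr4a1 is an orphan nuclear receptor, and Npas4 is a basic helix-loop-helix factor induced in neurons by depolarization. Arc and Homer1 act at the synapse: Arc drives removal of AMPA receptors from the membrane, and Homer1 encodes scaffolds of metabotropic glutamate receptors, among them the short, activity-induced form Homer1a. Gene-level counts do not tell Homer1a from the long forms. In the hippocampus these genes are widely used to mark recently active cells, and in the striatum they respond to dopamine and glutamate in both classes of medium spiny neuron, the D1 neurons of the direct pathway and the D2 neurons of the indirect pathway.

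In GENCODE vM21 (GRCm38) the genes lie on 9 chromosomes. Fos is at chr12:85473890-85477273, Fosb at chr7:19302696-19310051, Jun at chr4:95049034-95052222 and Junb at chr8:84974484-84978718. Egr1 is at chr18:34859823-34864984, Egr3 at chr14:70077203-70082614 and Nr4a1 at chr15:101254269-101274795. Arc is at chr15:74669083-74672570, Npas4 at chr19:4984355-4990316 and Homer1 at chr13:93299635-93405129.

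Within the hippocampus, CA1 pyramidal neurons held the highest mean of 9 of the 10 genes among the 4 neuronal classes with at least 20 nuclei in every library, and Jun was the exception. Mossy cells, with 9 to 76 nuclei per library, were not ranked. Levels are given as CPM, the UMIs of a gene scaled to the UMI total of the class in a library, with the first and second library of each age in that order. Arc in CA1 stood at 20.4 and 25.7 CPM at 3 months and 17.1 and 16.2 CPM at 21 months. In CA3 pyramidal neurons Arc was at 6.43 and 7.52 CPM at 3 months and 5.21 and 6.23 CPM at 21 months, and in granule neurons of the dentate gyrus at 1.73 and 2.39 CPM at 3 months and 0.770 and 1.03 CPM at 21 months. The ranges of these 3 classes did not overlap. Npas4 had the same order, with 11.2 and 15.4 CPM at 3 months and 9.43 and 11.5 CPM at 21 months in CA1 and a mean of 4.18 CPM in CA3 and 0.845 CPM in granule neurons.

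Nr4a1 was at 45.9 and 42.8 CPM at 3 months and 51.3 and 50.8 CPM at 21 months in CA1. Its next class was the inhibitory interneurons, with 22.6 and 27.7 CPM at 3 months and 31.1 and 24.5 CPM at 21 months, above CA3, whose 4 libraries lay between 12.6 and 21.0 CPM. Arc in interneurons was at 0.297 and 1.85 CPM at 3 months and 0.958 and 0.422 CPM at 21 months, which overlapped the granule neurons. Homer1 was at 317 and 333 CPM at 3 months and 369.8 and 256 CPM at 21 months in CA1, at 151 to 217 CPM in CA3 and at 61.9 to 84.1 CPM in granule neurons, which overlapped the interneurons at 74.7 to 89.2 CPM. Egr3 was at 9.0 to 13.4 CPM in CA1, 6.20 to 9.12 in CA3 and 6.31 to 7.27 in granule neurons, so that CA1 overlapped CA3 and CA3 the granule neurons, and interneurons lay below all 3 at 0.958 to 1.71 CPM.

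Jun had another distribution. Granule neurons held 36.6 and 37.2 CPM at 3 months and 32.5 and 39.8 CPM at 21 months, while the 4 CA1 libraries lay between 2.40 and 9.14 CPM and the CA3 libraries between 1.30 and 6.1 CPM, without overlap with the granule neurons. Endothelial nuclei had more Jun still, with 158 and 136 CPM at 3 months and 80.6 and 144 CPM at 21 months (37 nuclei in the smallest library). Fos in endothelial nuclei ranged from 1.97 to 28.8 CPM. In CA1 it was at 3.10 and 4.23 CPM at 3 months and 3.68 and 1.85 CPM at 21 months, and its 0.335 to 0.813 CPM in granule neurons made that class the lowest of the 10 classes ranked.

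**Figure D1:**
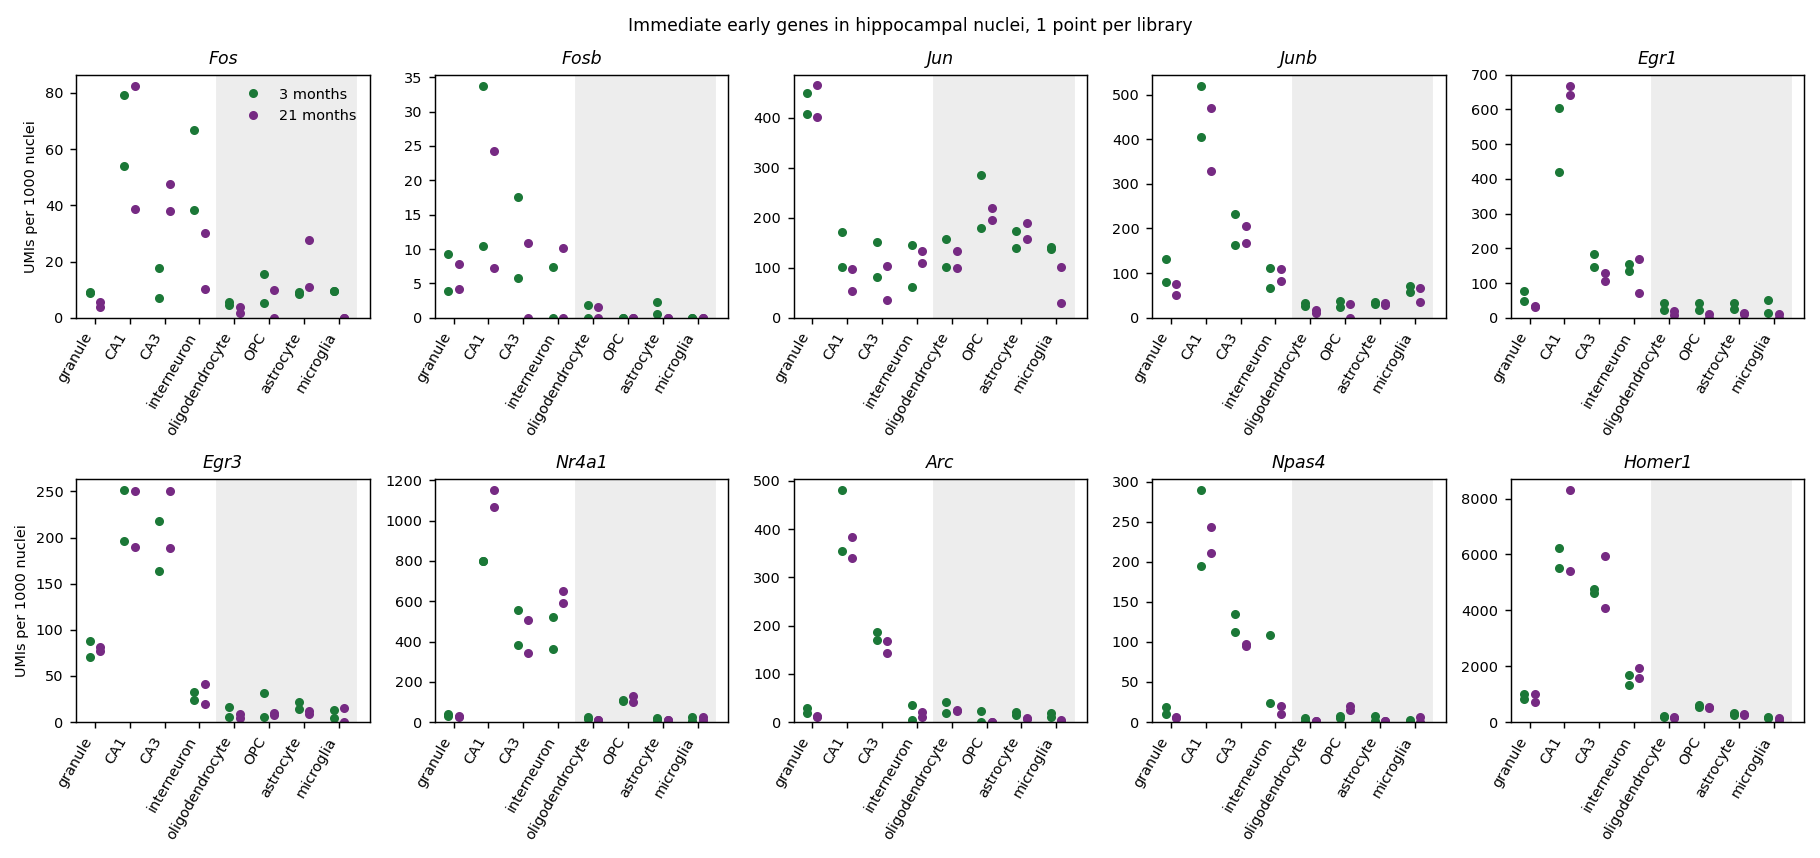
UMIs per 1000 nuclei of each gene in 8 hippocampal classes, 1 point per library (2 at 3 months, 2 at 21 months), with glial classes on grey. Arc is highest in CA1, and Jun is the gene whose granule neuron points, between 402 and 465, lie above those of the pyramidal neurons.

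In the caudate putamen D1 neurons held the highest neuronal means of Egr1, Egr3, Junb, Arc, Npas4 and Homer1, and eccentric medium spiny neurons (a small class marked by Otof and Casz1) those of Fos, Fosb, Nr4a1 and Jun. Junb in D1 neurons was at 65.1 and 80.0 CPM at 3 months and 64.9 and 105 CPM at 21 months. D2 neurons had 36.9 and 49.5 CPM at 3 months and 21.7 and 28.9 CPM at 21 months. The D1 value exceeded the D2 value in every library. Nr4a1 was at 75.1 and 110.4 CPM at 3 months and 63.5 and 58.6 CPM at 21 months in eccentric neurons, at 33.3 to 71.2 CPM in D1 and at 23.7 to 60.4 CPM in D2 neurons, and all 3 ranges overlapped. The striatal interneuron class left out a cluster of 147 nuclei with the cholinergic markers Chat and Slc5a7, which got no name. Striatal interneurons were lowest of the 4 neuronal classes in 9 of the 10 genes. Arc there stood at 5.12 and 8.01 CPM at 3 months and 4.31 and 4.57 CPM at 21 months, below every D1 and D2 library. Homer1 was at 538 and 706 CPM at 3 months and 535 and 536 CPM at 21 months in D1 neurons against 111 to 141 CPM in interneurons.

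Jun was again apart: the means of D1 and D2 neurons, 3.59 and 2.72 CPM, were the lowest of the 10 classes of the region. In oligodendrocytes Jun stood at 19.3 and 16.4 CPM at 3 months and 23.5 and 21.7 CPM at 21 months. Oligodendrocytes held 134% to 195% of the Jun UMIs per nucleus of the medium spiny neurons.

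**Figure D2:**
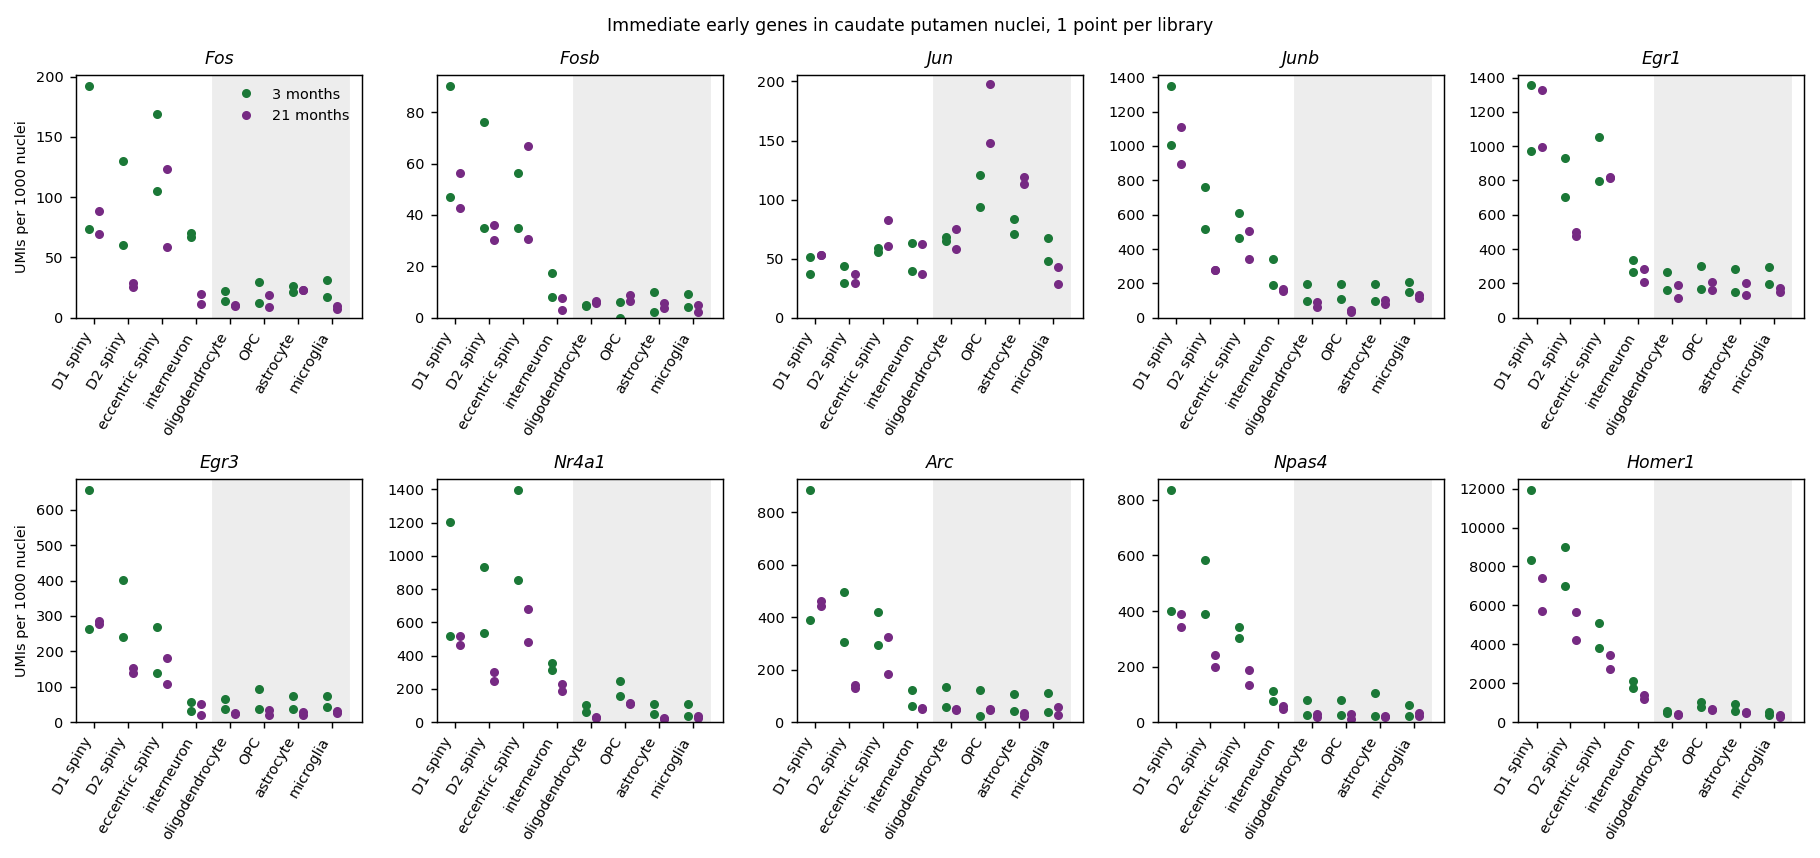
UMIs per 1000 nuclei of each gene in 8 classes of the caudate putamen, 1 point per library, with glial classes on grey. For Egr1, Egr3, Fosb, Junb, Npas4 and Homer1 every D1, D2 and eccentric neuron point lies above every glial point. This holds per nucleus. By mean CPM, Egr1 was at 50.0 in D2 neurons against 55.2 in oligodendrocytes and 76.4 in microglia. Junb was at 34.2 CPM in D2 neurons against 57.1 in microglia, and Arc at 19.7 against 20.5 in oligodendrocytes. The mean CPM of Egr3, Fosb, Npas4 and Homer1 kept the order. For Jun most glial points are the higher ones.

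The other 9 genes also had UMIs in glia, where neuronal RNA outside its own nucleus can be counted as well. In oligodendrocytes of the caudate putamen, UMIs per nucleus were 14.8% to 18.9% of those in medium spiny neurons for Arc, 15.1% to 23.2% for Egr1, 5.55% to 11.2% for Npas4 and 5.48% to 8.88% for Homer1. Markers of medium spiny neurons gave like shares: all 13 had UMIs in oligodendrocytes of every library, and their summed UMIs per nucleus came to 13.1% to 18.4% of the neuronal sum. Drd1 stood at 14.5% to 23.3%, Penk at 26.3% to 37.1% and Drd2 at 2.20% to 4.39%. Where the share of a gene lay within that of the markers, no expression in oligodendrocytes is read from it. In hippocampal oligodendrocytes Arc stood at 23.7% to 65.0% of the UMIs per nucleus of all neuronal classes together, most of them granule neurons. The 19 neuronal markers had a median of 4.75% to 8.35% per library there, and their sum, which the highest ones weigh on most, came to 17.8% to 20.1%. Of the 19, 14 stayed below the lowest Arc share in every library, among them Slc17a7 at 3.89% to 14.2%, and Prox1 (28.0% to 29.6%), Dcn (23.4% to 52.9%), Wfs1 (19.2% to 33.6%), Man1a (5.51% to 25.3%) and Dock10 reached it. Dock10 stood at 88.4% to 102.6% in oligodendrocytes and at 1.34% to 3.27% in astrocytes. The source of these Arc UMIs was not tested. Fos stood at 45.3% to 222% in hippocampal astrocytes. Nr4a1 stood at 58.5% to 99.9% in oligodendrocyte precursors there, and Junb at 32.2% to 63.3% in microglia. The marker medians per library were 6.59% to 11.9%, 7.10% to 13.1% and 3.04% to 7.60% in these classes. Single markers were high too: Wfs1 (90.2% to 214%) in astrocytes, Nectin3 (90.3% to 134%) in precursors and Man1a (61.7% to 116%) in microglia. The source of these UMIs was not tested either. Per 1000 nuclei, Arc in granule neurons was at 19.2 and 28.9 UMIs at 3 months and 9.54 and 12.1 UMIs at 21 months, and in hippocampal oligodendrocytes at 19.1 and 41.2 UMIs at 3 months and 23.9 and 25.4 UMIs at 21 months. Arc in granule neurons thus lay below the oligodendrocyte level in 3 libraries and at it in the first 3-month library, although granule nuclei were deeper (medians of 10021 to 11516 UMIs, against 2980 to 3362).

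To compare nuclei of unequal depth, each nucleus with at least 2000 UMIs was thinned to 2000, and shallower nuclei were left out. In the second 21-month caudate putamen library 215 of 416 microglia were kept. Oligodendrocytes lost nuclei too, so their shares describe the deeper part of that class. At least 1 of the 10 genes was then seen in 73.2%, 83.2%, 75.7% and 81.0% of D1 nuclei (3-month libraries first), and in 68.6%, 76.0%, 63.4% and 65.0% of D2 nuclei. Homer1 made up most of this share: it alone had a UMI in 61.6%, 70.6%, 62.8% and 63.7% of D1 nuclei, against 4.60% to 10.0% for Arc and 0.692% to 2.02% for Fos. In oligodendrocytes of the same libraries the share was 43.6%, 53.0%, 35.9% and 48.2%. UMIs of at least 2 of the genes were found in 24.6% to 39.8% of D1 nuclei, 13.8% to 27.9% of D2 nuclei and 6.23% to 16.2% of oligodendrocytes. In the hippocampus, 51.1% to 56.3% of CA1 nuclei held at least 1, while granule nuclei (20.9% to 25.3%) overlapped oligodendrocytes (16.2% to 25.4%).

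Granule neurons were not uniform. Of their 6 clusters, 1 was marked by Sorcs3, a sorting receptor, and was picked out after its values were seen, so it is described without a test. It held 656 nuclei (161 and 268 at 3 months, 123 and 104 at 21 months). Summed over libraries, Arc was at 13.6 CPM there against 0.832 to 2.25 CPM in the other 5 clusters. Nr4a1 was at 24.6 against 1.70 to 2.68 CPM, Npas4 at 5.68 against 0.407 to 2.01 CPM, and Homer1 at 209 against 56.8 to 100.5 CPM. Egr3 (16.0 against 4.98 to 8.03 CPM), Fos (2.06 against 0.283 to 1.23 CPM) and Fosb (1.29 against 0.125 to 1.20 CPM) were also above the other clusters in these sums, the last pair from 16 and 10 UMIs. By library the last pair did not hold: Fosb was at 0.626 and 0 CPM in the 21-month libraries against 0.634 and 0.376 in the other clusters together, and Fos was at 0.641 against 0.721 CPM in the second 3-month library. Egr1 (8.65 against 2.49 to 9.38 CPM), Junb (10.1 against 5.09 to 15.8 CPM) and Jun (28.9 against 28.1 to 49.6 CPM) lay within their range. Several neuronal response genes that took no part in the clustering were high in the same cluster: Nr4a3 at 33.9 against 2.80 to 4.42 CPM, the prohormone convertase gene Pcsk1 at 80.5 against 0.549 to 1.73 CPM, and Bdnf, which encodes a neurotrophin, at 249 against 35.5 to 96.2 CPM. Only a few response genes, chosen by hand, were looked at by cluster, so no share of all response genes can be given. The granule marker Prox1 was at 274 CPM, within the 242 to 364 CPM of the others. The granule markers Dock10 and Calb1 did not pass the naming limits in this cluster but passed them in the other 5. Its marker score for granule neurons was the lowest of the 6, at 1.12 against 1.41 to 2.175.

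**Figure D3:**
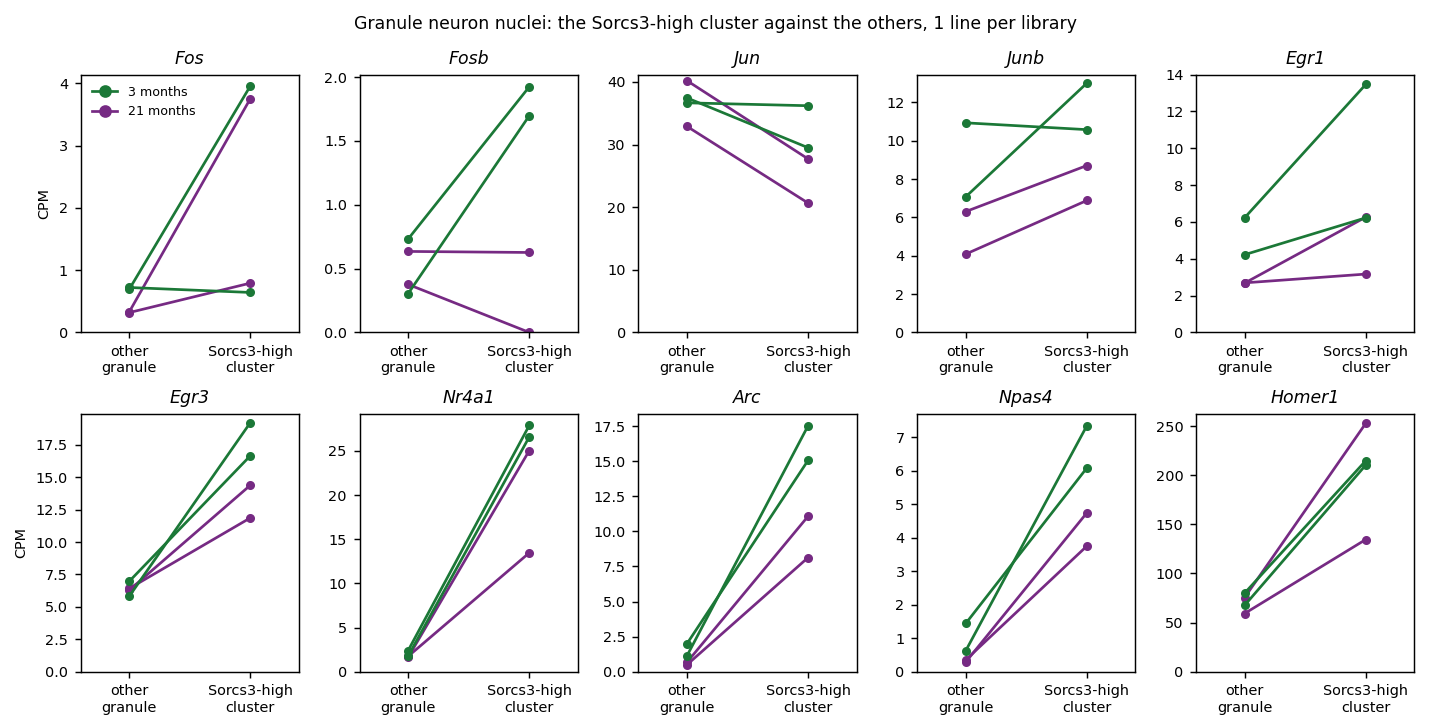
CPM of each gene in the Sorcs3-high cluster and in the other granule neuron clusters summed, 1 line per library. Arc runs from between 0.493 and 1.99 up to between 8.14 and 17.5 CPM, Nr4a1, Npas4 and Homer1 rise in each of the 4 libraries, and Jun falls in each.

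The comparison of 21 with 3 months asked whether these genes change with age in each class. In the hippocampus 66 pairs of gene and class could be tested, by the quasi-likelihood test of edgeR with the Benjamini-Hochberg adjustment over all genes of a class. A pair is called where its adjusted p is under 0.05, and 3 of the 66 were, against 1.2% of all genes over these classes. All 3 fell with age in granule neurons: Arc, Egr1 and Npas4. In that class 4.23% of all genes were called and 1.85% were called as lower. An unadjusted p under 0.05 was reached by 16 of the 66 pairs. Egr1 in granule neurons stood at 4.29 and 6.45 CPM at 3 months and 2.81 and 2.71 CPM at 21 months, a log2 change of -0.93 with SE 0.19 (edgeR adjusted p = 0.0225). Npas4 stood at 0.875 and 1.58 CPM at 3 months and 0.475 and 0.446 CPM at 21 months, a log2 change of -1.41 with SE 0.34 (edgeR adjusted p = 0.0406). Arc, given above, changed by -1.18 with SE 0.25 (edgeR adjusted p = 0.0234). In all 3 genes both 21-month libraries lay below both 3-month libraries, as they did in 33.0% of all genes in that class.

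Each of the 3 calls was lost without the first or the second 21-month library or without the second 3-month library, and all held without the first 3-month library. DESeq2, which called 3.94% of all genes in granule neurons, called Egr1 of the 3 (Arc had an adjusted p of 0.0512 and Npas4 one of 0.115), and Junb besides. With a gene length trend removed Npas4 was not called (edgeR adjusted p = 0.0568). Markers of CA1 neurons moved the same way in granule nuclei: 6 of 7 had a log2 fold change below 0 (median -0.47), and Mpped1 was called (-1.47, edgeR adjusted p = 0.0338). CA1 nuclei were 963 and 1187 in the 3-month but 279 and 206 in the 21-month libraries. The part of free RNA in the 3 results was not tested. The granule clusters were also held unequally by the ages. The largest had 1293 and 1810 nuclei at 3 months and 2109 and 1737 at 21 months. Another had 785 and 2704 nuclei at 3 months and 136 and 111 at 21 months. Over the clusters other than the Sorcs3-high one, Egr1 ranged from 2.49 to 9.38 CPM and Npas4 from 0.407 to 2.01 CPM. The part of this mix in the 3 results was not tested. The difference between the age effects of granule neurons and oligodendrocytes was not called for any of the 10 genes (0.381% of all genes called). Granule neurons minus oligodendrocytes, it was above 0 for 8 of the 10, with a median of 0.26. Arc had the lowest value (-0.91, SE 0.33, edgeR adjusted p = 0.345).

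Nuclei could be split into the 2 animals of a library by Xist and Y-linked UMIs, which gave 4 young and 4 old mice, with unassigned nuclei left out of the values per animal. Egr1 in granule neurons ranged from 3.41 to 7.69 CPM in the young and from 1.95 to 3.13 CPM in the old mice. Npas4 ranged from 0.609 to 1.57 CPM in the young and from 0.387 to 0.511 CPM in the old. Arc overlapped between the 2 ages. Of all genes, 9.74% were lower in all 4 old than in all 4 young mice. The other granule neuron genes did not pass: Fos changed by -0.87 (SE 0.32, edgeR adjusted p = 0.170) and Junb by -0.76 (SE 0.24, edgeR adjusted p = 0.161). Jun (0.01, SE 0.09), Egr3 (0.00, SE 0.13) and Homer1 (-0.08, SE 0.13) had small changes. The median over the 10 genes was -0.53, against -0.01 over all genes tested. No pair was called in hippocampal glia, but most changes there were below 0 as well. In oligodendrocytes this was so for 10 of 10 genes tested (median -0.79) and in oligodendrocyte precursors for 6 of 6 (-0.82). Astrocytes had 7 of 9 below 0 (-0.61) and microglia 6 of 8 (-0.47), beside 8 of 10 in granule neurons.

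No gene was called with age in CA1, CA3 or interneurons, where 10, 8 and 5 of the 10 passed the filter on low counts and 1.18%, 0.166% and 0.0% of all genes were called. In CA1, Arc (-0.37, SE 0.15), Jun (-1.08, SE 0.33), Junb (-0.40, SE 0.17) and Nr4a1 (0.30, SE 0.11) had an unadjusted p under 0.05 only. Nr4a1 was the one of these 4 that was higher at 21 months.

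Among the other genes of the pathway in granule neurons, where 4.23% of all genes were called, 0 of 18 other early transcription factors were. Of 25 response effectors, 2 rose: Sgk1, a kinase gene (0.39), and Bdnf (0.28). Heat shock genes fell in 3 of 10, Hspa5 (-0.81), Hspa8 (-0.74) and Hsp90ab1 (-0.41), with a median of -0.44 over that list. In hippocampal oligodendrocytes 3 of 9 heat shock genes fell (Hsph1 -1.05, Hspa8 -0.85, Hsp90ab1 -0.64), with 1.04% of all genes called there.

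In the caudate putamen 1 of 72 pairs was called, against 1.28% of all genes, and 21 had an unadjusted p under 0.05. The call was Nr4a1 in oligodendrocytes, with 17.1 and 25.6 CPM at 3 months and 8.65 and 9.90 CPM at 21 months and a log2 change of -1.16 with SE 0.22 (edgeR adjusted p = 0.0274), where 1.38% of genes were called. Per animal, it ranged from 14.3 to 29.4 CPM in the young and from 7.58 to 9.86 CPM in the old mice. The other genes overlapped between the ages per animal in oligodendrocytes of this region. The share of all genes without overlap was not computed for this class. Nr4a1 UMIs per oligodendrocyte were 6.39% to 11.3% of those in medium spiny neurons, between the shares of Drd2 and Drd1, and in D2 neurons of these libraries Nr4a1 changed by -1.04. Markers of D1 and of D2 neurons in oligodendrocytes had medians of -0.03 and -0.13, and Ppp1r1b, a marker of both, was lower (-0.73, edgeR adjusted p = 0.0405). The call was lost when any 21-month library of either region, or the second 3-month library of the caudate putamen, was left out, and when the glia of the region were fitted alone (edgeR adjusted p = 0.0521).

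In D2 neurons 9 of the 10 genes had a change below 0 with age, but none passed the adjusted threshold, while 4.58% of all genes did. An unadjusted p under 0.05 was reached by 7 of 10, the median change was -0.75 against 0.00 over all genes, and Jun was the one of the 10 with a change above 0 (0.24, SE 0.19). Arc was at 21.8 and 32.1 CPM at 3 months and 11.1 and 13.6 CPM at 21 months, a change of -1.15 (SE 0.24, edgeR adjusted p = 0.0878). Fos was at 4.34 and 8.44 CPM at 3 months and 2.28 and 2.66 CPM at 21 months, a change of -1.42 (SE 0.38, edgeR adjusted p = 0.127). Npas4 was at 27.8 and 37.9 CPM at 3 months and 19.0 and 20.6 CPM at 21 months, a change of -0.75 (SE 0.17, edgeR adjusted p = 0.0775). Both 21-month libraries lay below both 3-month libraries in each of these genes, and in 25.3% of all genes. DESeq2 called 6 of the 10 in D2 neurons, and 4.9% of all genes.

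Per animal, Arc in D2 neurons ranged from 20.3 to 41.5 CPM in the 4 young mice and from 9.88 to 15.1 CPM in the 4 old ones. The ranges of the other 9 genes overlapped between the ages, among them Fos (3.28 to 11.9 against 1.67 to 4.04 CPM) and Npas4 (24.2 to 43.2 against 13.7 to 25.6 CPM). Arc was thus 1 of 10 genes lower in every old mouse, against 6.39% of all genes, a share near the background. The share of thinned D2 nuclei with a UMI was lower in both 21-month libraries for 7 of 10 genes, against 21.0% of all genes. An exact two-sided permutation test of 2 against 2 libraries cannot give less than p = 0.3333, so no share was tested further.

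In D1 neurons of the same libraries the changes ranged from -0.40 (Nr4a1) to 0.67 (Jun), and none was called, with 1.26% of genes called and 1 unadjusted p under 0.05. Arc in D1 neurons was at 25.1 and 52.4 CPM at 3 months and 32.2 and 43.4 CPM at 21 months, so that the ages overlapped. Nr4a1 was at 33.3 and 71.2 CPM at 3 months and 37.6 and 43.9 CPM at 21 months, and its ages overlapped as well. Egr1 was at 62.8 and 80.3 CPM at 3 months and 72.3 and 125 CPM at 21 months, highest in the second 21-month library. The spread was wide in D1 neurons: the SE of the Arc change was 0.52, against 0.24 in D2 neurons.

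The difference itself was tested on D1 and D2 sums of each library, a test added after the values were seen. It was above 0 for all 10 genes, with a median of 0.57 against 0.00 over all genes. Fos (1.04, SE 0.15, edgeR adjusted p = 0.0146) and Junb (0.98, SE 0.09, edgeR adjusted p = 0.0191) were called, 2 of 10 genes against 0.101% of all genes, and 5 had an unadjusted p under 0.05. The D1 level of Junb divided by the D2 level was 1.76 and 1.62 at 3 months and 3.00 and 3.62 at 21 months. For Fos the ratio was 1.09 and 1.35 at 3 months and 2.81 and 2.45 at 21 months. For Arc it was 1.15 and 1.63, then 2.90 and 3.19, with a difference of 1.09 (SE 0.24) that was not called (edgeR adjusted p = 0.741). Homer1 was nearly the same in both ages, with 1.07 and 1.21, then 1.20 and 1.22.

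The Fos difference was called in 8 of 11 other settings and lost without either 21-month library and with DESeq2. The Junb difference was called in 10 of 11 and lost with doublets retained. Markers of D1 and of D2 neurons showed no call in the same difference (medians 0.02 and 0.03). With age in D2 nuclei, of 7 D1 markers 0 were called as higher and 1 as lower (Ppp1r1b, a marker of both classes, -0.45), with 4 above 0 and a median of 0.10. In D1 nuclei, of 7 D2 markers 0 were called as higher and 1 as lower (Gpr6, -0.81), with 2 above 0 and a median of -0.28. Of 8 astrocyte markers, all had a log2 change above 0 at 21 months in D1 and in D2 nuclei (medians of 0.69 and 0.82), but 0 were called in D1 and 1 in D2 nuclei. Their part, and that of the lower depth of the 21-month libraries, was not tested. Neither D1 nor D2 neurons differed from oligodendrocytes in the age effect of any of the 10 genes at the adjusted threshold (0.0861% of genes called for D1 and 0.167% for D2 neurons).

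**Figure D4:**
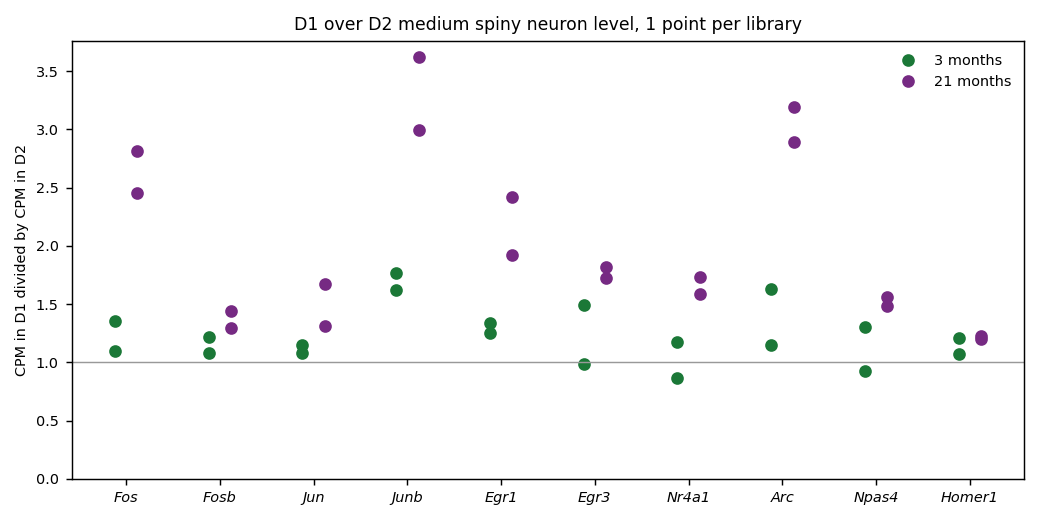
CPM in D1 divided by CPM in D2 medium spiny neurons for each gene, 1 point per library, with the line at 1.0 for equal levels. The 21-month points of Junb (3.00 and 3.62), Fos and Arc lie above the 3-month points, and those of Homer1 lie close to them.

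Some response genes outside the 10 were called in D2 neurons with age, all lower, where 4.58% of all genes were called in either direction. Of 25 effectors 4 fell: Vgf, a secreted neuropeptide precursor (-1.15), Arl4d (-1.07), Gadd45g (-0.91) and Rgs2, a regulator of G protein signalling (-0.65). Of 14 other early transcription factors Egr4 fell (-0.94), and of 24 upstream genes Srf, the serum response factor, fell (-0.66), both shares near that of all genes. Arl4d, Rgs2 and Egr4 were named after their values were seen. Heat shock genes fell in 3 of 8, Hspa8 (-0.58), Hspa5 (-0.57) and Hsph1 (-0.30). The partners of Homer and Arc had 0 of 10 called. In D1 neurons 1 of 26 effectors fell, again Vgf (-0.92), and 0 of 17 transcription factors, against 1.26% of all genes called. Rgs2 was called in the D1 against D2 difference (0.60, edgeR adjusted p = 0.00302).

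In the small neuronal classes of the caudate putamen no pair was called, with 0.0% of all genes called in eccentric neurons and 0.216% in interneurons. Npas4 in eccentric neurons was at 26.8 and 27.2 CPM at 3 months and 17.6 and 16.4 CPM at 21 months (-0.67, SE 0.17, edgeR adjusted p = 0.249). Its 4 young mice, at 29.4 to 30.5 CPM, lay above the 4 old ones, at 15.0 to 22.2 CPM. The other genes overlapped between the ages per animal in that class. The share of all genes without overlap was not computed there, so no result is read from it. Fos in striatal interneurons was at 5.44 and 4.58 CPM at 3 months and 1.54 and 1.07 CPM at 21 months (-1.90, SE 0.50, edgeR adjusted p = 0.158). In glia, Jun was higher at 21 months in astrocytes of the caudate putamen (0.83, SE 0.19) and in oligodendrocyte precursors (1.08, SE 0.31), without passing the adjusted threshold (edgeR adjusted p = 0.0841 and 0.116).

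Whether the age effect in glia differed between regions was tested over 33 pairs, and 0 were called by edgeR or DESeq2, with 5 at an unadjusted p under 0.05 and 0.0% of all genes called. The smallest p was that of Jun in oligodendrocyte precursors, 1.45 higher in the caudate putamen (SE 0.42, edgeR adjusted p = 0.561).

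Glia of the 2 regions differed at both ages. At 3 months 25 of 33 pairs were called, 22 higher and 3 lower in the caudate putamen, against 6.78% of all genes (3.65% higher). At 21 months 16 of 33 were called, all higher, against 6.56% of all genes (4.16% higher). Egr1 was called in each glial class at both ages, by 2.47 to 2.83 on the log2 scale at 3 months. At 21 months the difference was 3.71 (SE 0.49) in oligodendrocytes and 3.96 (SE 0.45) in astrocytes, while hippocampal microglia and oligodendrocyte precursors held 0 to 2 Egr1 UMIs per library, too few for a fold. The 3 lower ones were Jun in oligodendrocytes (-1.10, SE 0.19), astrocytes (-1.18, SE 0.18) and oligodendrocyte precursors (-1.32, SE 0.28). Markers of medium spiny neurons moved with the higher genes. In oligodendrocytes at 3 months 7 of 7 D2 markers were called as higher in the caudate putamen (median 5.71), and of 7 D1 markers 5 were higher and 1 lower (median 5.77). In astrocytes at 3 months 7 of 7 D2 markers were higher (median 3.58), and of 7 D1 markers 4 were higher and 2 lower (median 2.39). The part of neuronal RNA in these results was not tested. Region, punch and library cannot be told apart beyond the 2 libraries of a group.

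Female nuclei were compared with the male nuclei of the same library. In the caudate putamen 0 of 55 pairs were called by edgeR or DESeq2, none had an unadjusted p under 0.05, and 0.059% of all genes were called. In the hippocampus 0 of 28 were called by either tool (0.111% of genes), with 1 unadjusted p under 0.05, for Npas4 in CA1 (0.86 higher in females, SE 0.22).

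The last comparison asked which genes go with Arc in single neurons. D1 and D2 nuclei thinned to 2000 UMIs were divided into those with at least 1 Arc UMI and those with none, summed by library, and compared within libraries. Arc-positive D1 nuclei numbered 173 and 502 at 3 months and 242 and 426 at 21 months. D2 nuclei with Arc numbered 112 and 267, then 69 and 103. These were 4.60% and 10.0%, then 6.45% and 8.12% of the D1 nuclei, and 4.06% and 6.45%, then 2.32% and 2.52% of the D2 nuclei. In oligodendrocytes thinned alike, the deeper part of that class, the share was 3.12% and 6.74%, then 2.65% and 3.89%. D1 nuclei thus lay above them in every library, while D2 nuclei lay below them in 3 of 4 libraries. Arc-positive here thus means a nucleus with an Arc UMI, not one that transcribes Arc, and the part of free Arc RNA was not tested. Other neuronal classes had fewer than 20 such nuclei in some library and were not tested. Since Arc chose the nuclei, it was not tested itself.

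Of 18 pairs of the other 9 genes, 10 were called, all higher in Arc-positive nuclei, against 0.361% of all genes. In D2 nuclei 6 of 9 rose (0.405% of genes called): Fosb (2.28 on the log2 scale), Npas4 (1.90), Junb (1.76), Egr3 (1.65), Nr4a1 (1.30) and Egr1 (1.15). In D1 nuclei 4 of 9 rose (0.32% of genes called): Egr3 (0.94), Npas4 (0.93), Nr4a1 (0.66) and Junb (0.63). Whether the rise was larger in D2 than in D1 nuclei was not tested.

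Junb in D2 nuclei stood, in the order of libraries used above, at 161, 129, 94.2 and 136 CPM in Arc-positive nuclei, against 36.7, 48.7, 23.1 and 29.0 CPM in Arc-negative nuclei (SE 0.16, edgeR adjusted p = 3.47e-24). Npas4 in D1 nuclei stood at 78.0, 66.7, 82.6 and 43.4 CPM in Arc-positive nuclei, against 21.8, 47.9, 27.9 and 27.2 CPM in Arc-negative nuclei (SE 0.15, edgeR adjusted p = 1.7e-05). Arc-positive nuclei were higher in each of the 4 libraries for both, with the smallest steps for Npas4 in the second library of each age. Egr3 in D2 nuclei stood at 35.7, 41.2, 58.0 and 121 CPM in Arc-positive nuclei, against 17.4, 24.0, 11.9 and 12.8 CPM in Arc-negative nuclei (SE 0.24).

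Homer1 changed little and was not called (0.16, SE 0.05 in D1 and 0.27, SE 0.08 in D2 nuclei). Fos was not called either (0.64, SE 0.31 in D1 and 1.58, SE 0.44 in D2 nuclei), from 2 to 17 Fos UMIs in the Arc-positive nuclei of a library. Jun was not called (0.29, SE 0.48 and 0.39, SE 0.76). In D1 nuclei Egr1 (0.28, SE 0.10) and Fosb (1.24, SE 0.37) were not called either. The Fosb call in D2 nuclei rested on 2 to 12 UMIs per library and was lost without the second 3-month library. The Egr3 call in D2 nuclei was lost without the second 21-month library. In D1 nuclei Junb and Nr4a1 were not called where at least 2 Arc UMIs were asked for, nor Npas4 at 4000 UMIs per nucleus. A second random draw of the 2000 UMIs, added after the data were seen, kept all 10 calls and gave 13 in all.

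No marker of another cell type was called with Arc. In Arc-positive D2 nuclei 0 of 4 tested D1 markers, 0 of 8 oligodendrocyte markers and 0 of 4 astrocyte markers were called, and Drd1 differed by -0.42 (SE 0.46). In Arc-positive D1 nuclei 0 of 5 D2 markers were called, and Drd2 differed by 0.36 (SE 0.29).

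**Figure D5:**
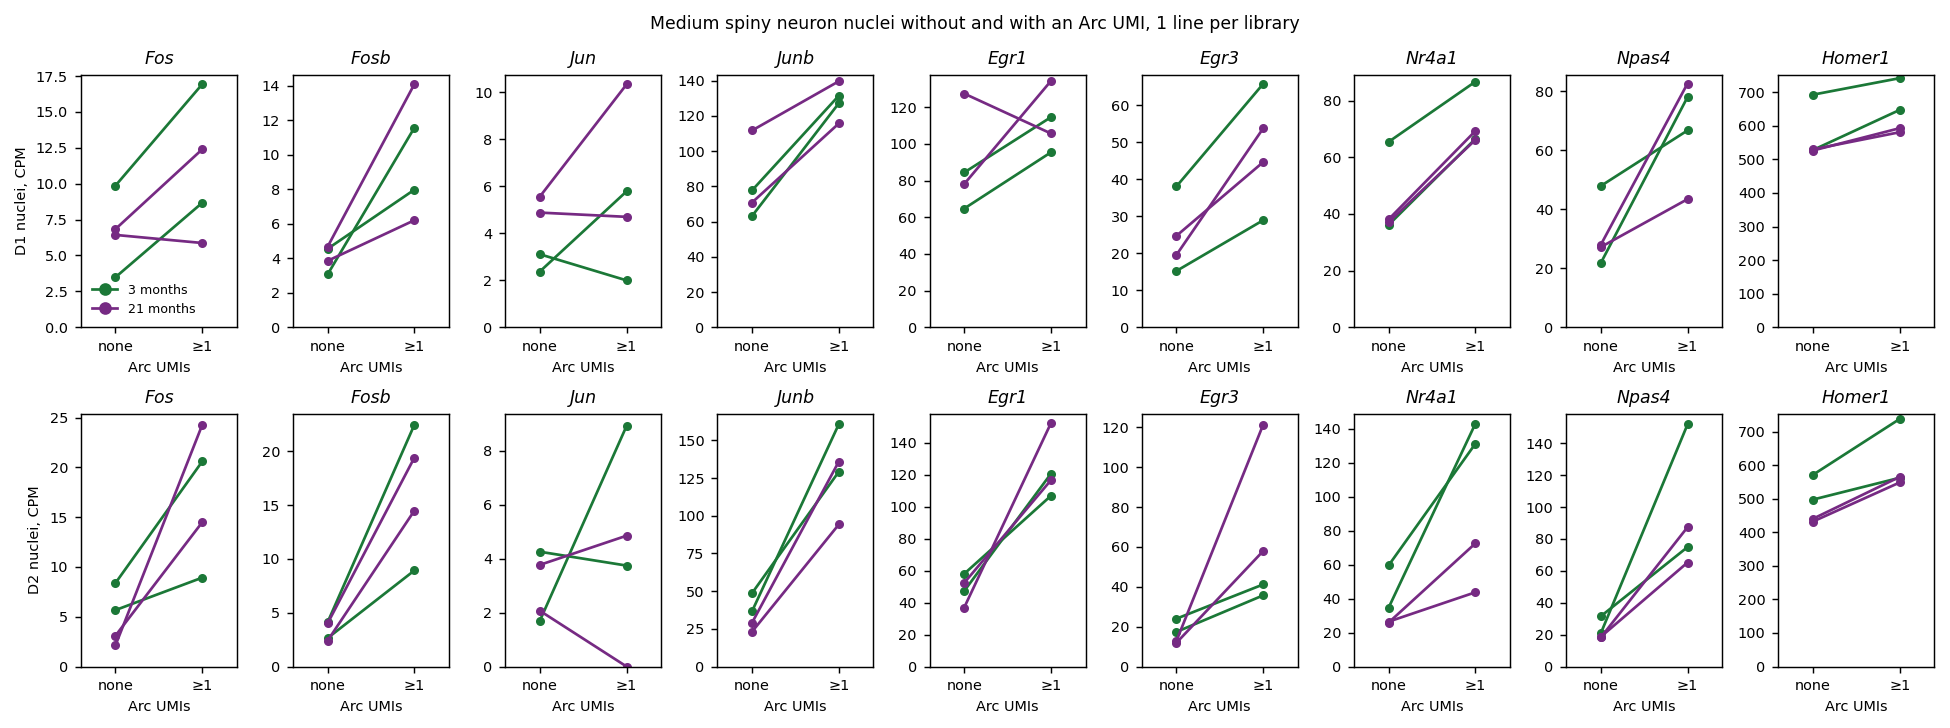
CPM of the other 9 genes in thinned D1 (upper row) and D2 (lower row) nuclei with no Arc UMI and with at least 1, 1 line per library. Lines for Junb, Egr3, Nr4a1 and Npas4 rise in all 4 libraries of both classes, and those of Jun do not all rise.

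Of the other lists, early transcription factors rose with Arc in 5 of 9 tested in D1 nuclei and in 4 of 7 in D2 nuclei, against 0.32% and 0.405% of all genes called in either direction. Effectors rose in 2 of 18 in D1 nuclei, Per1 (0.60), a clock gene, and Rgs2 (0.53). In D2 nuclei 5 of 18 effectors rose, among them Rgs2 (1.18) and Per1 (1.14), and 1 fell, the kinase gene Sgk1 (-0.49, named after its value was seen). Upstream kinases, channels and factors had 0 of 24 called in either class, Homer and Arc partners 0 of 8 and 0 of 9, and heat shock genes 0 of 8 in both. Among called genes outside the 10 that were higher in Arc-positive nuclei of all 4 libraries, a condition of the choice, the 5 most raised by size in D1 nuclei were Fosl2, an AP-1 subunit (1.13), Egr4 (1.10), Egr2 (1.10), Nr4a3 (1.07) and 1700016P03Rik (0.94). In D2 nuclei they were Nr4a3 (1.93), Gadd45g (1.88), Fosl2 (1.82), Egr4 (1.77) and 1700016P03Rik (1.51).

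1700016P03Rik, a noncoding gene, had the smallest adjusted p of the 5 in each class (edgeR, 8e-13 in D1 and 2.49e-18 in D2 nuclei). It lies on the plus strand at chr11:75172560-75177633 (GRCm38) and spans the hairpins of 2 microRNAs of neurons that CREB is known to induce. Their mature 3p forms are shown from RefSeq (GRCm38.p6) because they share a seed, bases 2 to 8, given in capitals. They lie at chr11:75173443-75173464 and chr11:75173723-75173744, outside the annotated exons of the gene. No microRNA was measured here.
mmu-miR-212-3p: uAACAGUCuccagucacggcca
mmu-miR-132-3p: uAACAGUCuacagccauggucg

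The promoter table from RefSeq (GRCm38.p6) had entries for 7 of the 10 genes. The 250 bases before the start of each entry are shown 5′ to 3′ on the strand of the gene for Junb and Nr4a1, which rose with Arc in both classes, and for Fos and Homer1, which were not called. Capitals mark TGACG, the core of sites bound by CREB, or CGTCA where it lies on the other strand. Within these windows Fos has 2, Junb 1, Nr4a1 4 and Homer1 3, and of the other entries Fosb has 1 and Jun 0. The window of the Npas4 entry, with 2, lies within annotated exons over all of its 250 bases. At least 1 such core, on either strand, is found in 17.8% of 32851 promoters of this length. The match is a description of the letters. The windows are chr12:85473640-85473889 (Fos, plus strand), chr8:84978749-84978998 (Junb, minus strand), chr15:101266596-101266845 (Nr4a1, plus strand) and chr13:93303507-93303756 (Homer1, plus strand, the first of 2 entries).
Fos: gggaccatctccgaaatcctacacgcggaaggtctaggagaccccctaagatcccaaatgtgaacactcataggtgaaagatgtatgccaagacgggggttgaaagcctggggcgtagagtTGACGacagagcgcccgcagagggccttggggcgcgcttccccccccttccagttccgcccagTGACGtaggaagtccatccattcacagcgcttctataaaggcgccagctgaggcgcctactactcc
Junb: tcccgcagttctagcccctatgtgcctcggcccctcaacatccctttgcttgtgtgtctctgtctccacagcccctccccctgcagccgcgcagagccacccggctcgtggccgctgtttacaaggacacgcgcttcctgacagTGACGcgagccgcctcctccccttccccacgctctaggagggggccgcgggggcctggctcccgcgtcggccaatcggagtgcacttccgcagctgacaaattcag
Nr4a1: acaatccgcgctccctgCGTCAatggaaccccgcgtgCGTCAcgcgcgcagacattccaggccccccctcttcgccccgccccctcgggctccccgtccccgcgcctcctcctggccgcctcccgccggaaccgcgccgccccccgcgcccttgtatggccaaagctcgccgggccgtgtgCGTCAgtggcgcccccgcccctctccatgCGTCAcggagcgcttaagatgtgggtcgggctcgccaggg
Homer1: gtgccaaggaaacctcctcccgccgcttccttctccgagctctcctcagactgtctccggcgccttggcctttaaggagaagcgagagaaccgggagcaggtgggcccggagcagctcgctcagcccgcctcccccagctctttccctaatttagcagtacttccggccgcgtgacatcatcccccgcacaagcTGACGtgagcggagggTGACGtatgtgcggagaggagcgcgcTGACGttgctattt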

How the data were processed

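The deposited matrices held raw UMI counts per gene and barcode, with no normalization. The submitters' processing notes name Cell Ranger 4.0.0 and mm10, whereas the version per the file headers was 6.1.2 in 7 libraries and 7.0.0 in 1. Whether introns were counted, and alike in all libraries, is not given in the sources used here, and the part of the version in the values of the second 3-month caudate putamen library was not tested. Of 32285 gene identifiers, 32235 were in GENCODE vM21.

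Nuclei needed 500 genes and at most 5% mitochondrial UMIs. Scrublet (scanpy 1.11.5) called 10640 doublets among 109826 barcodes. The second 3-month hippocampal library was called at its expected share because the automatic threshold took 40.4%. It is also a library without which the 3 hippocampal age calls were lost. With doublets retained in all libraries these 3 calls held. Each region was clustered (3000 variable genes, 40 components, 20 neighbours, Leiden resolution 1.0). Clusters were named from fixed markers, with limits set after the data were seen, and 4062 hippocampal and 1824 caudate putamen nuclei got no name.

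Counts summed per library and class went into the quasi-likelihood test of edgeR 4.0.16 after TMM scaling and filterByExpr, with Benjamini-Hochberg adjustment. Each SE is the absolute log2 change divided by the square root of the F statistic of that test, not a separate estimate. Neuronal classes were fitted on the 4 libraries of their region, glia on all 8, and sexes and Arc-positive nuclei with a term for the library. Nuclei were assigned to a sex by Xist or Y-linked UMIs (72.3% to 81.7% of a library). On simulated data the test recovered 70 of 100 2-fold and 99 of 100 4-fold changes among 17984 granule neuron genes. Alternatives are given at the end.

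The genes and lists (other early transcription factors, response effectors, upstream genes, Homer and Arc partners, heat shock genes) were chosen with earlier results of these data known. All 10 genes were named, with up to 6 called list genes per comparison by adjusted p, and the 5 genes most raised with Arc in all 4 libraries. The granule neuron age results of the upstream genes and of the Homer and Arc partners are not reported here.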

Additional observations from a re-analysis of the deposited data

Results flagged for a closer look

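The age effects of Fos and Junb differed between D1 and D2 medium spiny neurons under the test of the difference itself. The age effect in D1 minus that in D2 was 1.04 for Fos (edgeR adjusted p = 0.0146) and 0.98 for Junb (edgeR adjusted p = 0.0191), on the log2 scale. Over the alternatives the adjusted p reached 0.161 for Fos and 0.0933 for Junb, and the difference stayed between 0.94 and 1.25 and between 0.83 and 1.10. The comparison of these 2 classes was added after the values were seen, and each rests on 2 libraries per age.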

How the results depend on the processing

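None of the 57 called pairs changed direction under the alternatives run. Uncalled changes could: Homer1 in granule neurons, at -0.08, was 0.11 without the second 21-month library, and Fosb in D2 neurons, at -0.38, was 0.25 without the second 3-month library. The 3 hippocampal age calls became 9 with no filter on low counts, 5 with a replicate block and 5 with the replicate numbers crossed and 2 with the gene length trend removed, where Npas4 was lost, and leaving out a library gave 0 to 5, with 0 without either 21-month or the second 3-month library and 5 without the first 3-month library. DESeq2 gave 3 calls, 1 of them shared. The 1 call in the caudate putamen, a lower one, became 7 with DESeq2, all lower, and 0 with glia fitted on the region alone. It became 2 with the gene length trend removed (1 higher, 1 lower), 9 with no filter (1 higher, 8 lower) and 13 with a replicate block (3 higher, 10 lower). Leaving out a library gave 0 to 7 there, with 7 without the first and 3 without the second 3-month library. The replicate numbers are shared by 2 pairs a region only, and the block was not the main fit. Same-numbered deviations correlated by -0.15 to 0.146 in the hippocampus. In the caudate putamen they correlated by 0.0213 to 0.380, most in D1 (0.380) and D2 neurons (0.285). A D1 cluster there held 1516 and 330 nuclei at 3 months and 1249 and 134 at 21 months, by replicate number. The absence of age calls in D1 and D2 neurons thus holds for the fit without the block. The interaction rose from 0 to 2 calls with no filter and stayed at 0 with the block and in each leave-out. The D1 against D2 difference gave 4 calls with DESeq2, 1 with doublets retained and 2 to 6 in leave-outs (4 without the first and 6 without the second 3-month library). Neurons against oligodendrocytes gave 0 to 1, with 1 without the first 21-month caudate putamen library. The 41 region calls ranged from 30 to 48 in leave-outs and from 33 (DESeq2) to 57 (no filter) otherwise, and the 10 calls with Arc from 9 to 11 and from 12 (library totals) to 15 (4000 UMIs). Leaving out a library assumes that a lone sample varies like the others. For the called pairs, 397 recomputed values kept the call and 21 lost it under other settings, and 307 kept and 83 lost it in leave-outs. Causes were not tested. Npas4 in granule neurons rested on 16 to 161 UMIs per library.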

Other observations

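Endothelial nuclei, a small class (at least 37 nuclei per hippocampal and 40 per caudate putamen library), held Jun and Junb at high levels. Junb stood at 54.8 and 57.1 CPM at 3 months and 21.8 and 63.3 CPM at 21 months in the hippocampus, the highest mean of the 10 ranked classes. Fos stood at 19.9 and 1.97 CPM at 3 months and 2.42 and 28.8 CPM at 21 months there, again the highest mean, but in the caudate putamen at 0 and 3.57 CPM at 3 months and 7.90 and 0 CPM at 21 months, the ninth of the 10 means. In the caudate putamen Jun stood at 114 and 39.2 CPM at 3 months and 55.3 and 62.5 CPM at 21 months, above the mean of every other class. This class was not among those chosen for the age test and is given as levels only.

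Clusters without a name entered no comparison. The shallowest in the caudate putamen held 701 nuclei with a mean of 1050 UMIs per nucleus, and its Arc level was 121 CPM, above the mean of every named class. The shallowest in the hippocampus held 825 nuclei with a mean of 1073 UMIs per nucleus, and its Arc level was 20.3 CPM.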
